A study of Mus musculus with 12 samples.

Results

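KDM6A and MLL4 occupancy was compared between the antibodies inside each of 2 female lines of mouse pancreatic cancer, one labelled KDM6A-KO and one labelled KDM6A-WT. The members were all regions in the lists of cstKDM6A and MLL4, 24090 of 313566 regions in 11 lists at hand. The KO line gave 5961 KDM6A and 13152 MLL4 regions, and the WT line gave 2847 KDM6A and 2130 MLL4 regions. A region belonged to the co-occupied class of its line when it shared at least 1 bp with a region of the other antibody, and otherwise to a class of 1 antibody alone.

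The assay was chromatin immunoprecipitation with sequencing, and the lines were grown in F12/DMEM with EGF and left untreated. Each combination of antibody, line and sex held 1 library, so a difference between classes or lines has no replicate check and no test between libraries. The cell type label of every library, those of WT genotype included, names a tumour without K6A as the origin, and KO and WT are used as the genotype field gives them. Strain, the age of the animals and the number of clones behind a line were not given in the labels. The labelled cell type could not be checked against marker genes, since regions are named here by position alone. The KDM6A list of the KO line was not empty and was longer than that of WT, so the lists do not separate the lines as the genotype would. In the KO line, KDM6A itself, another target of the antibody and background cannot be told apart at a listed region. H3K4me1 was listed for each line, whereas H3K27ac, H3K4me3 and H3K27me3 were listed for the WT line alone, and their state in KO is not known from these lists. Reads inside the KDM6A and MLL4 regions summed to 279350 and 620902 in KO and to 147117 and 108165 in WT, and the depth outside the regions is unknown. A WT library titled Input, with IgG in its antibody field, was not analysed here.

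KDM6A, also called UTX, removes methyl groups from H3K27 and sits in the complexes of the methyltransferases MLL3 and MLL4. MLL4, given as KMT2D in the antibody field, places most of the monomethyl mark of H3K4 at enhancers together with MLL3. H3K27ac marks active enhancers and promoters, H3K4me3 marks promoters, and H3K27me3 is the mark of Polycomb repression that KDM6A can erase.

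Most regions of either antibody were listed for that antibody alone, in either line. In the KO line 1975 KDM6A regions, 33.1% of the list [31.9 to 34.3], were overlapped by MLL4, and 3986 were not. Seen from MLL4, 2020 regions of KO, 15.4% [14.7 to 16.0], were overlapped by KDM6A and 11132 were not. In the WT line 381 KDM6A regions, 13.4% [12.2 to 14.7], were overlapped by MLL4 and 2466 were not. Of the MLL4 regions of WT, 378 or 17.7% [16.1 to 19.4] were overlapped by KDM6A and 1752 were not. Brackets hold 95% Clopper-Pearson intervals (exact, over regions, counting error only). The order of the antibodies was thus opposite in the lines: the larger share was that of KDM6A in KO and that of MLL4 in WT, in each case the antibody with the shorter list. With both lists of a line held to the number of the shorter one, keeping the regions with the most reads, this order was gone: the shares were 23.1% for KDM6A and 23.0% for MLL4 in KO, and 15.1% for either antibody in WT. The number of regions an antibody can meet depends on the length of the other list, so the shares of KO and WT are not levels of co-occupancy on 1 scale. By bases, 25.6% of the KDM6A sequence and 12.5% of the MLL4 sequence of KO lay in regions of the other antibody, against 11.1% and 13.3% in WT.

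The overlapping regions were mostly pairs that covered each other well. Runs of overlapping KDM6A and MLL4 regions were joined into 1917 co-occupied loci in KO and 376 in WT, and 93.4% of the loci in KO and 98.1% of those in WT held 1 region of each antibody. A locus had a median span of 2200 bp in KO and 2000 bp in WT, of which 1200 bp were common to the antibodies in either line. Among the 1 to 1 pairs the centres lay a median of 400 bp apart in KO and 300 bp in WT, with upper quartiles of 700 bp and 600 bp. All borders lay on steps of 200 bp. The KDM6A region lay inside a longer MLL4 region in 27.9% of the pairs in KO and 35.2% in WT, and the MLL4 region inside a longer KDM6A region in 23.3% and 21.1%. Identical borders were found for 49 pairs in KO and 15 in WT. The remaining pairs, 46.0% in KO and 39.6% in WT, were shifted against each other.

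Regions of 1 antibody alone differed between the lines in how near they came to the other antibody. In KO the nearest MLL4 region lay a median of 19600 bp from a KDM6A region without overlap, and 7.75% [6.94 to 8.63] of these regions had one within 1 kb. In WT the median was 141200 bp and 0.933% [0.592 to 1.40] had one within 1 kb. From MLL4 regions without overlap the nearest KDM6A region was at a median of 42200 bp in KO and 116700 bp in WT. Such distances depend on the number of regions listed, which was larger in KO.

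Co-occupied regions held more reads than regions of 1 antibody alone. For KDM6A of KO the median was 47 reads with MLL4 and 40 without, with quartiles of 38 to 62 and 34 to 48. For MLL4 of KO it was 53 reads with KDM6A, quartiles 38 to 76, and 38 without, quartiles 31 to 50. In WT the medians were 52 and 43 for KDM6A and 52 and 43 for MLL4. The quartile ranges of the classes overlapped for both antibodies in both lines. The median length was also larger with the other antibody, except for KDM6A of WT. It was 1600 bp with and 1400 bp without the other antibody for KDM6A of KO, and 1600 bp and 1200 bp for MLL4 of KO. In WT it was 1400 bp in either class for KDM6A, and 1600 bp and 1400 bp for MLL4. Reads per kb of region were also higher in the co-occupied class, at 30.0 against 28.3 for KDM6A of KO, 32.0 against 30.5 for MLL4 of KO, 37.5 against 34.4 for KDM6A of WT and 32.5 against 30.0 for MLL4 of WT.

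Each list was then divided into 5 classes by reads, from fewest to most, and the same relation was seen as a gradient. Among KDM6A regions of KO, MLL4 overlapped 21.4% [19.3 to 23.7] of the class with the fewest reads, 20 to 34, and 56.9% [54.0 to 59.8] of the class with the most, 57 to 720. For MLL4 of KO the lowest class gave 7.43% [6.49 to 8.47] and the highest 32.8% [31.0 to 34.7]. In WT, KDM6A regions were overlapped in 8.94% [6.77 to 11.5] of the lowest and 24.2% [20.7 to 28.0] of the highest class, with the second class at 7.33% below the first. MLL4 regions of WT gave 10.3% [7.59 to 13.5] and 31.4% [26.9 to 36.0]. Classes by reads per kb ran from 21.2% to 40.0% for KDM6A of KO, with the fourth class at 42.7%, from 10.1% to 20.3% for MLL4 of KO, from 4.79% to 24.7% for KDM6A of WT, and from 7.73% to 28.3% for MLL4 of WT. From the shortest to the longest class by length, the shares ran from 26.5% to 50.9% for KDM6A and from 8.98% to 32.5% for MLL4 in KO. In WT they ran from 10.9% to 19.4% for KDM6A and from 14.1% to 29.3% for MLL4. A longer region has more room for a 1 bp overlap, and the gradient by reads was not separated from length. A region just under the threshold of one antibody is missing from its list. The absence of the other antibody thus means only that no region was listed.

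**Figure D1:**
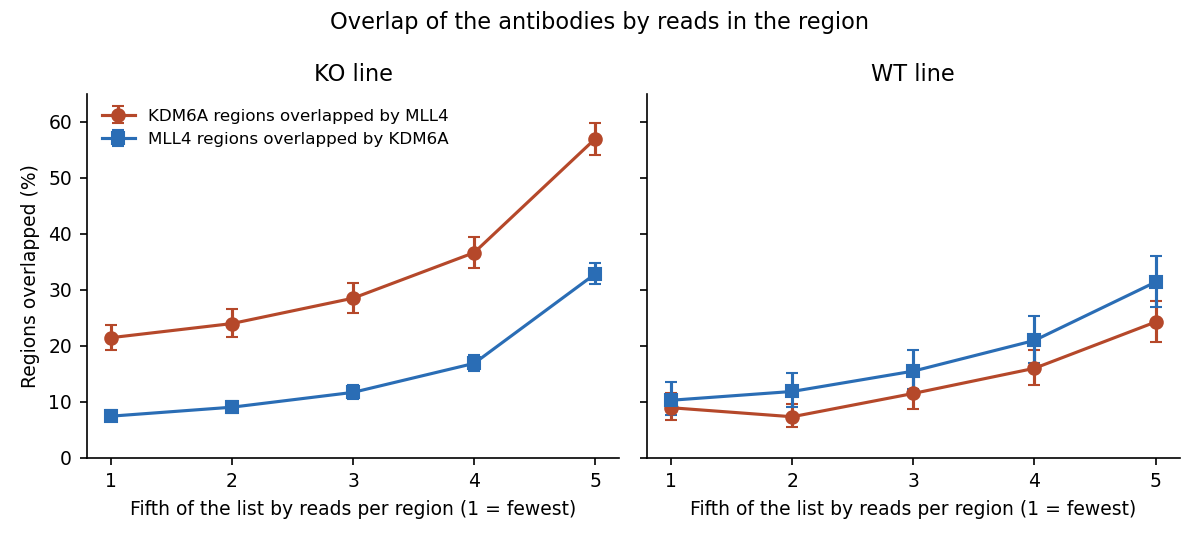
Share of regions overlapped by the other antibody of the same line (y axis, %) in 5 classes of each list by reads per region (x axis, fewest to most), for the KO line on the left and the WT line on the right; bars are exact 95% intervals over regions. The share was largest in the class with the most reads in all 4 lists, at 56.9% for KDM6A and 32.8% for MLL4 in KO and at 24.2% and 31.4% in WT.

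At co-occupied loci the reads of the antibodies went only loosely together. Over 1791 pairs of KO, Spearman's rho between KDM6A and MLL4 reads was 0.27, and over 369 pairs of WT it was 0.39. Per kb of region rho was 0.26 in KO and 0.29 in WT. The lengths of the paired regions had rho of 0.21 in KO and 0.31 in WT. These values describe pairs that share a line and a position, and they carry no test. Loci in the upper 10% of their lists for both antibodies numbered 199 in KO, 10.4% of its loci, and 47 in WT, 12.5%. In the upper 10% for KDM6A, with or without MLL4 there, were 386 of 1917 loci in KO and 85 of 376 in WT. For MLL4 these counts were 503 and 86.

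**Figure D2:**
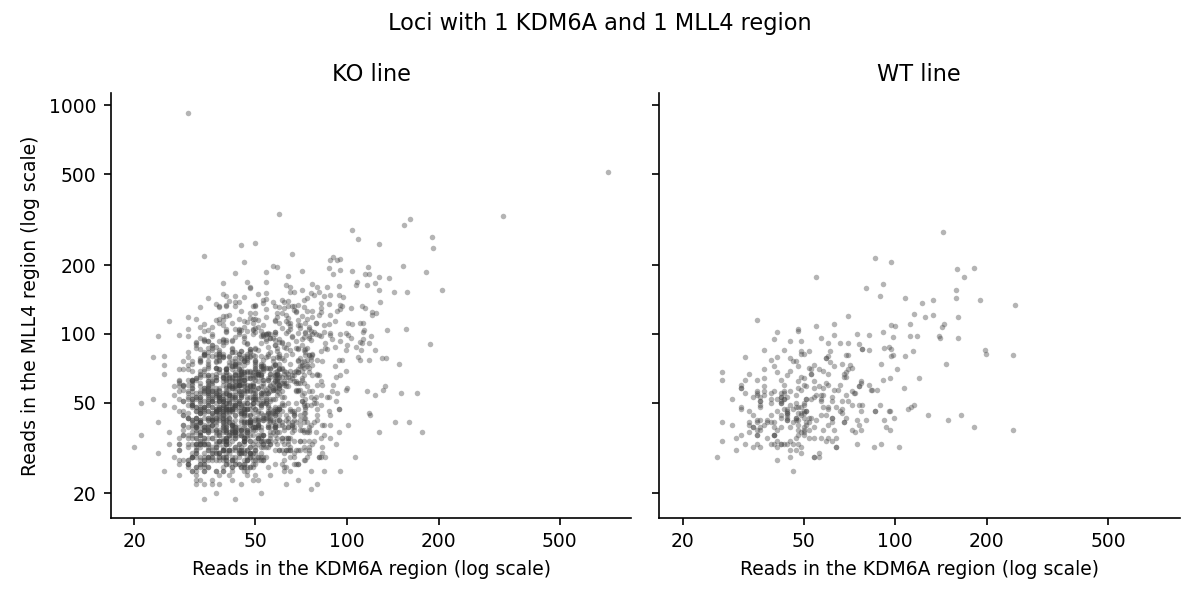
Reads in the KDM6A region (x axis, log scale) against reads in the MLL4 region (y axis, log scale) for loci with 1 region of each, in the KO line (left, 1791 points) and the WT line (right, 369 points). The points form a broad cloud with rho of 0.27 in KO and 0.39 in WT, and a KO locus with 929 MLL4 reads and 30 KDM6A reads stands apart at the upper left.

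H3K4me1, the mark MLL4 places, was listed more often at co-occupied regions than at regions of either antibody alone. In the KO line H3K4me1 of KO overlapped 39.7% of all KDM6A regions, 66.7% [64.6 to 68.8] of those with MLL4 and 26.3% [25 to 27.7] of those without. For MLL4 of KO the whole list gave 56.2%, regions with KDM6A 66.3% [64.2 to 68.4] and regions without it 54.3% [53.4 to 55.3]. In the WT line H3K4me1 of WT overlapped 61.5% of the KDM6A list, 91.1% [87.8 to 93.7] of the regions with MLL4 and 56.9% [55.0 to 58.9] of those without. For MLL4 of WT the values were 69.9% for the list, 91.5% [88.3 to 94.1] with KDM6A and 65.2% [63.0 to 67.5] without. The difference between classes was 40.4 percentage points for KDM6A and 12.0 for MLL4 in KO, and 34.1 for KDM6A and 26.3 for MLL4 in WT. The MLL4 difference in KO was smaller among regions with many reads, at 6.40 points with both lists held to equal number and 6.72 in the upper 50% of each list, and the MLL4 difference in WT was 16.4 points without chromosomes 1, 6, 15, 17 and 19.

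The differences were present among short, middle and long regions. Among the short KDM6A regions of KO, up to 1200 bp, H3K4me1 overlapped 68.4% with MLL4 and 25% without, and among the long ones, from 2000 bp, 68.0% and 29.6%. The narrowest gaps were those of MLL4 in KO, at 58.8% [54.8 to 62.7] with and 52.1% [50.8 to 53.4] without KDM6A among short regions and 73.8% and 63.4% among long ones. In WT the short MLL4 regions gave 93.6% with and 63.6% without KDM6A, and the short KDM6A regions 90.1% with and 55.5% without MLL4.

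Read the other way, the antibodies met more often where H3K4me1 was listed. KDM6A regions of KO that shared at least 1 bp with H3K4me1 were overlapped by MLL4 in 55.7% [53.6 to 57.7] of cases. Those outside H3K4me1 were overlapped in 18.3% [17 to 19.6]. In WT these values were 19.8% [18.0 to 21.8] and 3.10% [2.16 to 4.31], so 34 of 1096 KDM6A regions outside H3K4me1 met MLL4. For MLL4 regions meeting KDM6A, the values with and without overlap by H3K4me1 were 18.1% and 11.8% in KO and 23.2% and 4.99% in WT.

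The active marks of the WT line showed the same order of classes as H3K4me1. H3K27ac overlapped 34.5% of all KDM6A regions of KO, 62.3% [60.1 to 64.4] with MLL4 and 20.8% [19.5 to 22.1] without, and 51.3% of all MLL4 regions of KO, 61.7% [59.5 to 63.8] with KDM6A and 49.4% [48.5 to 50.4] without. At KDM6A regions of WT it overlapped 40.1% of the list, 78.0% [73.4 to 82.0] with MLL4 and 34.3% [32.4 to 36.2] without. At MLL4 regions of WT it overlapped 56.0% of the list, 77.8% [73.2 to 81.9] with KDM6A and 51.3% [48.9 to 53.7] without. H3K4me3 overlapped 26.6% of all KDM6A regions of KO, 49.6% with MLL4 and 15.2% without, and 39.2% of all MLL4 regions of KO, 49.8% with KDM6A and 37.3% without. In WT it overlapped 28.9% of the KDM6A list, 66.9% with MLL4 and 23.1% without, and 44.7% of the MLL4 list, 66.4% with KDM6A and 40.0% without. Regions of KO are set here against marks of another line, and a share lower in KO than in WT may not be read as a lower level of the mark in KO.

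H3K27me3 was listed less often at co-occupied regions, but the intervals of the classes were apart for KDM6A of KO alone and overlapped for MLL4 of KO and for both antibodies of WT. It overlapped 6.26% of all KDM6A regions of KO, 2.68% [2.02 to 3.50] with MLL4 and 8.03% [7.20 to 8.92] without. For MLL4 of KO it overlapped 3.83% of the list, 2.92% [2.23 to 3.75] with KDM6A and 4.0% [3.64 to 4.38] without. In WT it overlapped 6.25% of the KDM6A list, 5.25% [3.24 to 7.99] with MLL4 and 6.41% [5.47 to 7.45] without. For MLL4 of WT the values were 7.89% for the list, 5.03% [3.05 to 7.74] with KDM6A and 8.50% [7.24 to 9.91] without.

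**Figure D3:**
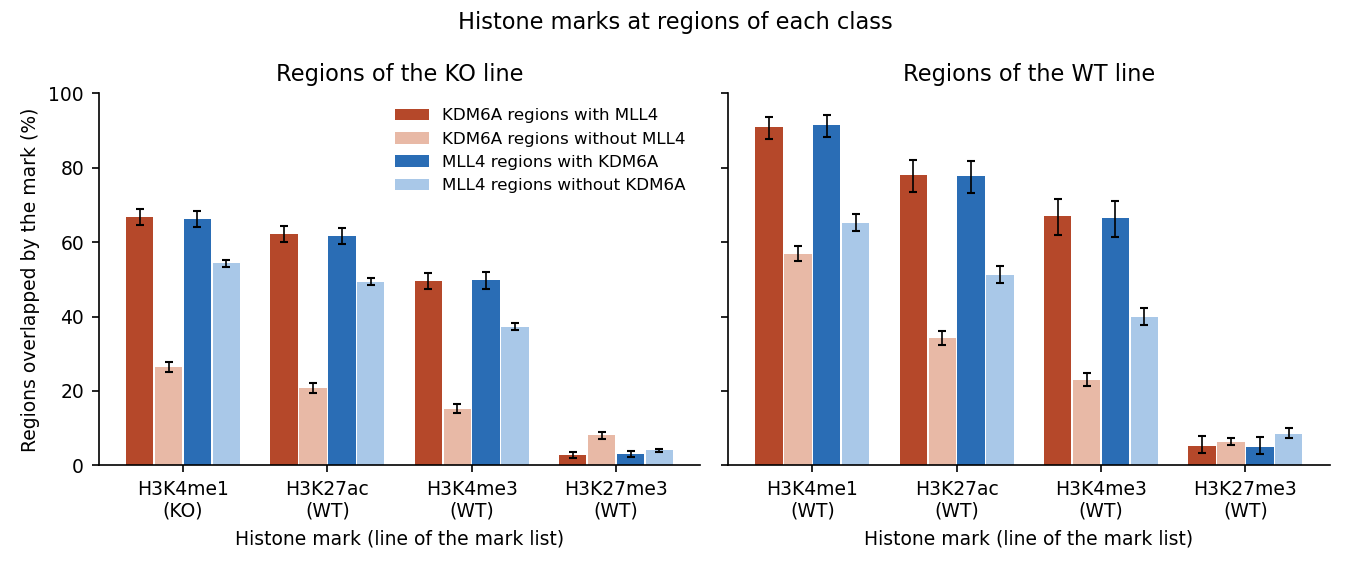
Share of regions overlapped by each histone mark (y axis, %), for regions of the KO line on the left and of the WT line on the right; bars are coloured by class, error bars are exact 95% intervals over regions, and the line of each mark list stands under its name. Co-occupied regions stood highest for H3K4me1, H3K27ac and H3K4me3 in both lines, and KDM6A regions without MLL4 stood lowest, at 26.3% for H3K4me1 in KO.

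Combining the marks, co-occupied regions most often carried H3K4me3 without H3K27me3. No gene start was assigned, so this group is not a count of promoters. None of the 4 marks was the largest group for KDM6A regions without MLL4 in both lines. The same held for MLL4 regions of KO without KDM6A, at 39.6% against 36.6% for H3K4me3 without H3K27me3. H3K4me3 without H3K27me3 was found at 48.5% of the KDM6A regions with MLL4 and 14.4% of those without in KO, and at 64.8% and 22.4% in WT. The group with H3K4me1 and H3K27ac but without H3K4me3 differed in KO, at 10.8% [9.45 to 12.2] with MLL4 and 4.74% [4.10 to 5.45] without. In WT it was 11.0% [8.06 to 14.6] and 11.2% [9.97 to 12.5]. Regions with H3K27me3, and then those with H3K4me3, were set aside before the remaining groups were counted. In both lines this removed a larger part of the class with MLL4. The near equal shares of WT therefore do not show that its classes were alike in H3K4me1 with H3K27ac. The KO shares are likewise shares of the whole class, not of the regions left. H3K4me1 alone was found at 11.0% of the KDM6A regions of WT with MLL4 and at 21.2% [19.6 to 22.9] of those without. None of the 4 marks overlapped 28.6% [26.6 to 30.6] of the KDM6A regions with MLL4 and 63.9% [62.4 to 65.4] of those without in KO, and 7.87% [5.38 to 11.1] and 38.1% [36.2 to 40.1] in WT. For MLL4 the unmarked share was 28.7% with and 39.6% without KDM6A in KO, and 7.41% and 28.5% in WT. For regions of KO, all marks but H3K4me1 are those of WT, so unmarked is not a known state of the KO line.

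**Figure D4:**
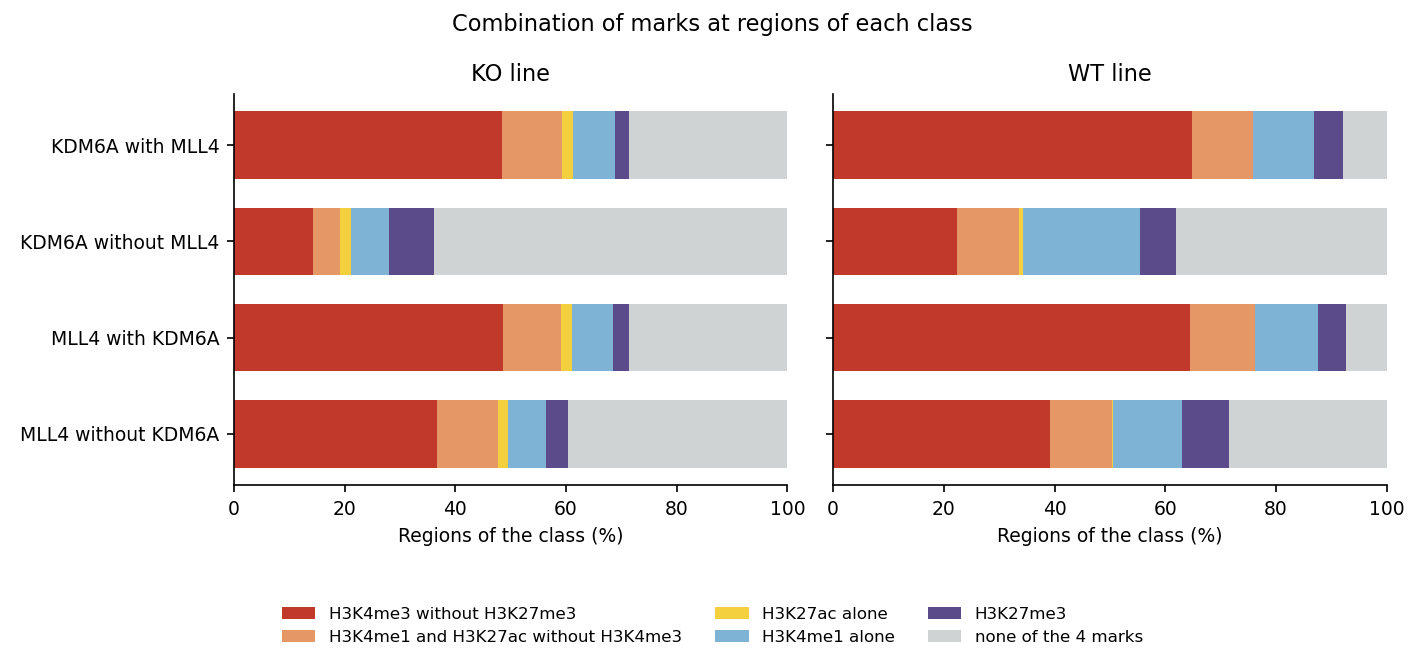
Combination of marks at the regions of each class (x axis, % of the class) for the KO line on the left and the WT line on the right; H3K4me1 is that of the same line, the other marks are those of WT, and each region falls in 1 colour. Regions with H3K4me3 and without H3K27me3 filled 48.5% of the co-occupied KDM6A class in KO and 64.8% in WT, and the unmarked part was 63.9% of the KDM6A regions without MLL4 in KO.

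H3K4me1 regions that held both antibodies were the longest and held the most reads. Of the 35041 H3K4me1 regions of KO, 1409 held both antibodies, 817 KDM6A alone, 4815 MLL4 alone and 28000 neither. In that order their median length was 7000, 4200, 5200 and 3000 bp, and their median reads per kb were 47.0, 37.6, 43.8 and 33.9. Of the 56076 H3K4me1 regions of WT, 403 held both, 1265 KDM6A alone, 1029 MLL4 alone and 53379 neither, with median lengths of 11200, 6200, 6600 and 2600 bp and 57.5, 46.3, 49.6 and 35.0 reads per kb. A longer region has more room for either antibody, and the order in length was not separated from this. H3K27ac regions of WT gave the same order, with 320 regions holding both at a median of 76.2 reads per kb and 27367 holding neither at 44.2. H3K4me3 regions of WT did not: the 265 with both antibodies had 95.7 reads per kb and the 536 with KDM6A alone 95.8, below the 137 of the 666 with MLL4 alone and the 133 of the 23025 with neither.

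Co-occupied loci were ranked by the lower of their percentiles for KDM6A and MLL4 reads, and the leading 5 of each line are given by position in mm9, with the reads of the strongest region of each antibody. In KO the first spanned chromosome 13, 12988201 to 13005600, with 720 KDM6A reads and 509 MLL4 reads, and H3K4me1 was listed there in WT but not in KO. The second spanned chromosome 14, 44048601 to 44056200, with 325 and 329 reads over nearly the same borders, and lay wholly inside H3K4me1 of KO. The next, nearby on chromosome 14 at 43952001 to 43958200, held 191 and 266 reads and also lay inside H3K4me1 of KO. The last 2 lay on chromosome 6, at 149131401 to 149138000 with 192 and 238 reads and at 119955601 to 119965200 with 165 and 240 reads, and the one at 119955601 was made of 2 regions of each antibody. H3K27ac of WT overlapped 3 of the leading 5 and H3K4me3 of WT 2, the pair on chromosome 6. Over all loci of KO these marks overlapped 63.0% and 50.7%. None of the 5 was listed for KDM6A or MLL4 in WT, as was the case for 85.9% of all loci of KO.

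Of the regions and loci named by rank or length within a line, 2 of 12 for KO lay on chromosomes 1, 6 and 17. These chromosomes held a surplus of the regions of KO, 3349 of 5961 for KDM6A and 6900 of 13152 for MLL4. For WT, 12 of 12 lay on chromosomes 15 and 19. A surplus was held there by WT, 1126 of 2847 regions for KDM6A and 867 of 2130 for MLL4. In WT the leading 5 co-occupied loci all carried H3K4me1, H3K27ac and H3K4me3 of WT, which overlapped 91.5%, 77.7% and 67.0% of all WT loci. They were led by chr19:20476401-20483000 with 182 KDM6A and 194 MLL4 reads. At chr15:77648201-77654800 the antibodies held 168 and 178 reads, and at chr15:66973001-66979600 they held 159 and 192. The list ended with chr19:57269601-57274000 at 158 and 156 reads and chr15:88680001-88684000 at 158 and 144. All 5 lay wholly inside H3K4me1 of WT. MLL4 of KO was listed at 3 of them and KDM6A of KO at 1, the one at 77648201, which made it co-occupied in both lines. Of all WT loci, 15.4% were co-occupied in KO too, 34.6% were listed there for MLL4 alone and 2.39% for KDM6A alone.

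The longest co-occupied loci of the lines differed in how the regions of the antibodies met. In KO it was chromosome X, 166407001 to 166425600, where an MLL4 region of 18200 bp with 929 reads met a KDM6A region of 800 bp with 30 reads over 400 bp at its edge. It was counted as co-occupied by the 1 bp rule. H3K4me1 of KO and H3K27ac of WT were absent there, whereas H3K4me1 and H3K4me3 of WT were listed. In WT it was chromosome 19, 38097601 to 38106000, with 143 KDM6A and 280 MLL4 reads, where a KDM6A region of 4200 bp lay inside the MLL4 region and H3K4me1, H3K27ac and H3K4me3 were listed.

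Among regions of 1 antibody alone, the leading KDM6A regions of KO were chr9:43854401-43855200 (249 reads in 800 bp), chrX:155064201-155070200 (171 reads) and chr19:29822401-29828000 (148 reads). None of these 3 overlapped H3K4me1 of KO or H3K27ac and H3K4me3 of WT, and the one on chromosome 9 overlapped H3K27me3 of WT. The other 2 were also listed for KDM6A in WT. The leading MLL4 regions of KO without KDM6A were chr19:5839801-5849000 (384 reads), chrX:166431601-166437200 (295 reads) and chr19:9146201-9152800 (249 reads). All 3 overlapped H3K4me1 of KO and H3K27ac and H3K4me3 of WT. In WT the leading KDM6A region without MLL4 was chr15:99808201-99819600 (395 reads), followed by chr15:13294201-13299400 and chr19:55331401-55336600 (212 reads each). H3K4me1 of WT and MLL4 of KO were listed at all 3. The leading MLL4 region of WT without KDM6A, chr19:5844001-5851200 (309 reads), overlapped the leading one of KO, so this element was listed for MLL4 and not for KDM6A in either line. The next were chr15:77627601-77634800 (224 reads) and chr15:59240401-59246000 (213 reads), and all 3 carried H3K4me1, H3K27ac and H3K4me3 of WT.

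Co-occupied regions were listed for the same antibody in the other line more often than regions of 1 antibody alone, a comparison added after seeing the data. KDM6A regions of KO were overlapped by KDM6A of WT in 4.36% of the list, 8.46% [7.27 to 9.77] of those with MLL4 and 2.33% [1.89 to 2.85] of those without. For KDM6A regions of WT and KDM6A of KO the shares were 8.99%, 16.5% [12.9 to 20.7] and 7.83% [6.80 to 8.96]. MLL4 regions of KO were overlapped by MLL4 of WT in 4.77% of the list, 7.67% [6.55 to 8.92] of those with KDM6A and 4.24% [3.87 to 4.63] of those without. For MLL4 regions of WT and MLL4 of KO the shares were 28.3%, 49.5% [44.3 to 54.6] and 23.7% [21.8 to 25.8]. Co-occupied regions also held more reads and, except for KDM6A of WT, had a larger median length. The classes were not matched for reads or length here.

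Loci co-occupied in both lines need all 4 lists to meet. Of the 1917 loci of KO, 57 overlapped a co-occupied locus of WT, 2.97% [2.26 to 3.84], and of the 376 loci of WT, 58 overlapped one of KO, 15.4% [11.9 to 19.5]. Of the other WT loci, 130 or 34.6% [29.8 to 39.6] of all were listed in KO for MLL4 alone, 9 for KDM6A alone, and 179 or 47.6% [42.5 to 52.8] for neither. Of the other KO loci, 97 were listed in WT for MLL4 alone, 116 for KDM6A alone, 1 for both without overlap between them and 1646, 85.9% of all, for neither. H3K4me1 of the same line was listed at 54 of the 57 shared loci in KO and at 66.2% [64.0 to 68.4] of the other loci of KO. In WT it was listed at 58 of 58 and at 89.9% [86.1 to 93.0] of the others. H3K27ac of WT overlapped 55 of the 57, against 61.9% of the other KO loci, and 56 of the 58, against 74.2% of the other WT loci. Of 58 pairs of shared loci, 15 lay on chromosomes 1, 6 and 17, which held 1353 of the 1975 co-occupied KDM6A regions of KO. H3K4me1 of KO was listed at 59.1% of the co-occupied KDM6A regions there and at 84.1% on the 15 chromosomes without a surplus. Shared and other loci were not matched for chromosome.

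The shared loci lay on 16 chromosomes, and the leading 4 by their lowest read percentile over the 4 lists were on chromosome 15. The leading one spanned 61275801 to 61279200 in KO, with 112 KDM6A and 133 MLL4 reads, and 61276201 to 61282400 in WT, with 247 and 134 reads. Neighbours on the same chromosome followed, at 61361401 to 61369600 in KO with 161 and 317 reads and 61366601 to 61369000 in WT with 92 and 87, and at 62158401 to 62161800 in KO with 94 and 148 reads and 62158201 to 62162000 in WT with 114 and 84. The fourth, 101904601 to 101908000 in KO and 101902201 to 101908000 in WT, held 107 and 88 reads in KO and 199 and 82 in WT. The last of the 5, on chromosome 14, 100021801 to 100024800 in KO and 100022601 to 100025200 in WT, held 95 and 93 reads in KO and 82 and 85 in WT. All 5 were overlapped by H3K4me1 of both lines and by H3K27ac and H3K4me3 of WT, and none by H3K27me3. Of all 58 pairs of shared loci, 55 were overlapped by H3K4me1 of KO and 58 by H3K4me1 of WT. H3K27ac of WT overlapped 56 of these pairs, H3K4me3 52 and H3K27me3 2.

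Co-occupancy varied between chromosomes. The share of KDM6A regions overlapped by MLL4 in KO ran from 8.41% on chromosome X, 9 of 107 regions, to 44.5% on chromosome 6, 462 of 1038. In WT it ran from 6.25% on chromosome X, 3 of 48, to 30.5% on chromosome 8, 25 of 82. Chromosomes 1, 6 and 17 held 3349 of 5961 KDM6A regions and 6900 of 13152 MLL4 regions of KO and are called its chromosomes of surplus. There, 40.4% [38.7 to 42.1] of its KDM6A regions and 20.1% [19.2 to 21.1] of its MLL4 regions were co-occupied. On the 15 chromosomes without a surplus in either line the values of KO were 25.2% [23.4 to 27.1] and 9.91% [9.14 to 10.7]. In WT the chromosomes of surplus were 15 and 19, with 1126 of 2847 KDM6A regions and 867 of 2130 MLL4 regions. They gave 12.0% [10.1 to 14] for KDM6A and 15.6% [13.2 to 18.2] for MLL4, and the other 15 gave 14.1% [12.3 to 16.0] and 19.3% [16.9 to 21.8]. H3K4me1 at co-occupied KDM6A regions was listed at 59.1% [56.5 to 61.8] on 1, 6 and 17 and 84.1% [80.8 to 87.1] on the other 15 chromosomes in KO, and at 77.0% [69.0 to 83.8] on 15 and 19 and 99.0% [96.4 to 99.9] on the other 15 in WT. Without MLL4 the values were 19.7% and 34.7% in KO and 41.1% and 65.7% in WT. The contrast between classes was therefore present within each group of chromosomes. What the surplus adds to the class sizes was not tested beyond these values.

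**Figure D5:**
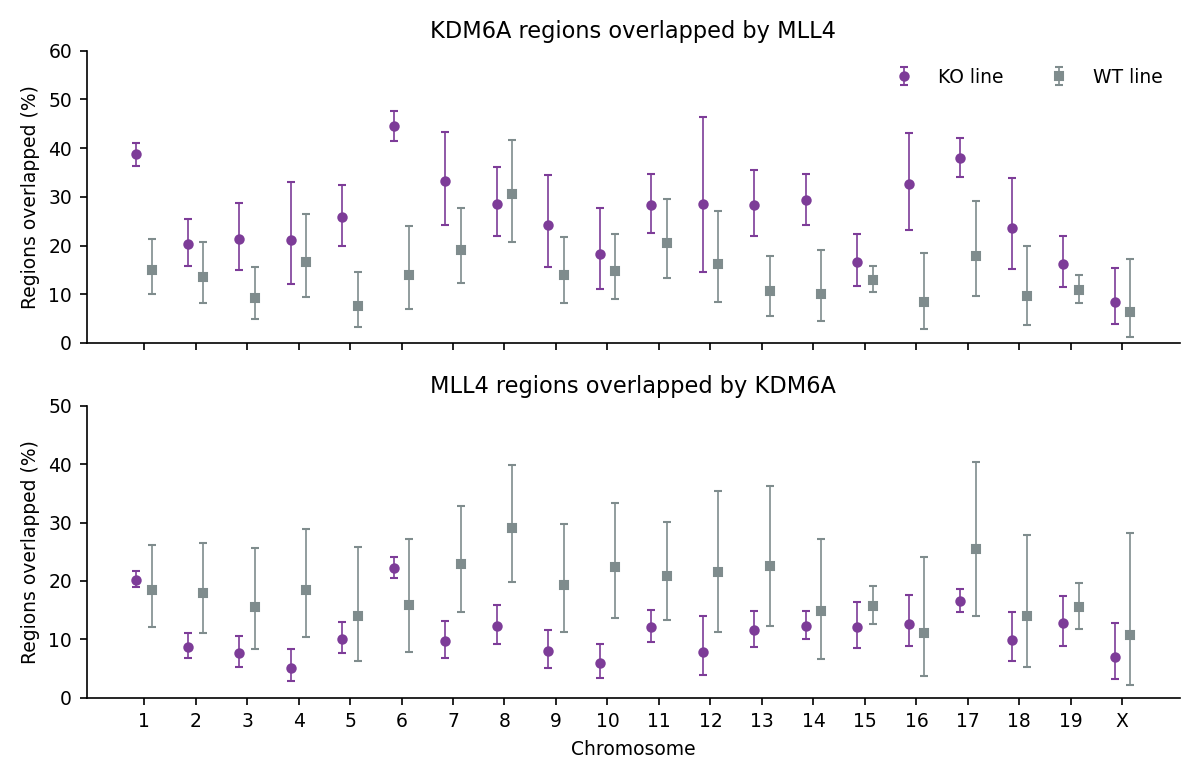
Share of KDM6A regions overlapped by MLL4 (upper panel) and of MLL4 regions overlapped by KDM6A (lower panel) on each chromosome (x axis) in the KO and WT lines, in % with exact 95% intervals over regions. Chromosomes 1, 6 and 17 stand out in KO, with 44.5% of the KDM6A regions overlapped on chromosome 6, whereas the intervals of WT are wide and mostly overlap each other.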

How the data were processed

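Region lists of KDM6A, MLL4 and H3K4me1 from the female KO and WT lines and of H3K27ac, H3K4me3 and H3K27me3 from female WT were used, 9 of the 11 lists at hand. The H3K4me1 lists of the male lines were not used here. The build mm9 and the tools SICER 1 and Bowtie 1.1.2 stand in the submitters' processing notes, with no role or order. Each list holds positions and a column of whole numbers that no header names. From their values, these deposited numbers were read as the authors' counts of sequencing reads per region, not normalised. The control, the threshold and the number of mapped reads are not stated. Borders lay on steps of 200 bp, and the smallest gap between regions was 400 bp in the KDM6A, MLL4, H3K4me1 and H3K4me3 lists, 600 bp for H3K27ac and 800 bp for H3K27me3. The counts served only to describe and rank regions of the same list.

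Overlap was at least 1 bp, as the class rule gives it. Positions count from 1. The 5 classes by reads and the 3 by length were cut at quantiles of their values, so tied regions stay together and classes differ in size. Named regions were the leading 5 co-occupied loci per line by the lower of both read percentiles, the leading 3 regions per class of 1 antibody by reads, the leading 5 loci shared by the lines and the longest locus per line. The members, rules and the chromosomes of surplus were chosen with earlier results of these data known. The reference tables at hand describe another build, so no gene was assigned and no sequence read. The gene lists and cell type markers of the design could not be used for the same reason. Alternatives were a minimum cover of 50%, the upper 50% of regions by reads, lists of equal number, lists without the 5 chromosomes of surplus and a distance of 1 kb, plus WT without the KDM6A regions also listed in KO, added after seeing the data. No test was run, since each group held 1 library. Python 3.11.15, numpy 2.4.6, pandas 2.3.3, scipy 1.17.1 and matplotlib 3.10.9 were used. Overlap counts were checked against bedtools 2.31.1 and tested on simulated data with planted overlaps.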

Additional observations from a re-analysis of the deposited data

Results flagged for a closer look

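The share of co-occupied regions on the chromosomes with a surplus, minus that on the other 15 chromosomes, had opposite signs in the lines. For KDM6A regions the difference was 15.2 percentage points in KO and -2.06 in WT, and for MLL4 regions 10.2 in KO and -3.69 in WT. Each line was set against its own chromosomes of surplus, 1, 6 and 17 in KO and 15 and 19 in WT. In WT the intervals of both chromosome groups overlapped for KDM6A and for MLL4. The difference between the lines was not tested, and its cause was not tested.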

How the results depend on the processing

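No paired analysis was possible because each group held 1 library. Of 66 values under the alternatives, 28 moved by less than their counting interval and 38 moved by more. H3K4me1 was listed more often at regions with than without the other antibody in 22 of 22 contrasts, by 6.40 points (MLL4 of KO, equal numbers) to 49.4 points (KDM6A of KO, without the chromosomes of surplus). The cause of a moved value was not tested.

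In KO, the share of KDM6A regions met by MLL4 was 26.3% with at least 50% of the region covered, 23.1% with equal numbers of regions, 25.2% without the chromosomes of surplus and 38.3% within 1 kb. For MLL4 regions met by KDM6A these shares were 11.8%, 23.0%, 9.91% and 19%. H3K4me1 at KDM6A regions with MLL4 was 70.6% with 50% covered, 74.9% in the upper 50% by reads, 74.7% with equal numbers, 84.1% without the chromosomes of surplus and 63.6% within 1 kb, and at those without MLL4 it was 28.7%, 31.9%, 29.2%, 34.7% and 24.9%. At MLL4 regions with KDM6A it was 74.4% in the upper 50% by reads, 75% with equal numbers, 83.5% without the chromosomes of surplus and 63.8% within 1 kb, and at those without KDM6A the first 3 of these settings gave 67.7%, 68.6% and 72.4%.

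In WT, 50% cover and equal numbers gave shares of 11.5% and 15.1% for KDM6A and 13.9% and 15.1% for MLL4, and leaving out KDM6A regions also listed in KO gave 14.8% for MLL4. In the upper 50% by reads and without the chromosomes of surplus, H3K4me1 was 96.3% and 99.0% at KDM6A regions with MLL4, 64.7% and 65.7% at those without, 96.3% and 99.0% at MLL4 regions with KDM6A, and 73.9% and 82.6% at those without. One library per group, unknown depth and marks of KO known for H3K4me1 alone limit all comparisons between the lines.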

Other observations

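Pairs of antibodies were also set across the lines, a comparison chosen after seeing the data. KDM6A regions of KO were overlapped by MLL4 of KO in 33.1% of cases and by MLL4 of WT in 3.64% [3.18 to 4.15]. KDM6A regions of WT were overlapped by MLL4 of KO in 19.6% [18.2 to 21.1] of cases and by MLL4 of WT in 13.4%, the list of KO being the longer. With MLL4 lists of equal number, keeping the regions with the most reads, KDM6A of KO gave 12.9% [12.1 to 13.8] with MLL4 of KO and 3.64% with MLL4 of WT. KDM6A of WT gave 7.02% [6.11 to 8.03] with MLL4 of KO and 13.4% with MLL4 of WT. At equal list length each KDM6A list thus met the MLL4 list of its own line more often. Both lists of a line share its chromosomes of surplus, and lists of equal number without these were not made. On the other 15 chromosomes, whole MLL4 lists of KO and WT overlapped 25.2% and 4.45% of KDM6A regions of KO. For KDM6A regions of WT these shares were 21.6% and 14.1%. Whether the order at equal length comes from the surplus was not tested. For MLL4 regions and KDM6A lists of equal number, 1317 of 13152 MLL4 regions of KO met KDM6A of KO and 573 met KDM6A of WT, and MLL4 of WT gave 6.29% with KDM6A of KO and 17.7% with KDM6A of WT.

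H3K4me3 regions of WT that met KDM6A regions of KO with MLL4 held a median of 569 reads, against 1219.5 for those that met KDM6A regions of KO without MLL4 and 319.5 over the whole list. At KDM6A regions of WT the medians were 284 with MLL4 and 335 without. The cause of this difference was not tested.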
